A study of Mus musculus with 8 samples.

Results

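Keratins and the proteins of the desmosomal plaque were described in mouse embryonic fibroblasts that lack Cbx2 and in wild-type fibroblasts. The members are the 9 rows of the authors' deposited gene table, of 17441 in all, that hold Krt5, Krt7, Krt8, Krt14, Krt18, Krt19, Dsp, Pkp1 or Jup. They were chosen with the deposited values of both genotypes known, so their values and the authors' adjusted p-values are given as a description and not as a test. The study used primary fibroblasts collected at embryonic day 18 and grown for 2 passages. One group was wild type, from littermates, and the other was Cbx2-/-, a targeted deletion of a chromodomain subunit of polycomb repressive complex 1. Each genotype gave 2 RNA-seq libraries of 200000 cells and about 4.62 Gb each, and the 2 ATAC-seq libraries of each genotype are not analysed here. The labels name no transgene, Cre, strain or body region, and nothing in them ties a library to an embryo, so the spread between them may be technical.

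Keratins are the intermediate filament proteins of epithelia. They assemble only as pairs of a type I and a type II chain, with Krt18 and Krt8 as the main pair of simple epithelia, Krt19 and Krt7 as further simple epithelial chains, and Krt14 and Krt5 as the pair of basal cells in stratified epithelia. Desmosomes tie these filaments to the cell membrane. In their plaque the armadillo proteins Jup (plakoglobin) and Pkp1 (plakophilin 1) bind the tails of desmosomal cadherins, and Dsp (desmoplakin), a plakin, links them to the filaments. Fibroblasts build their filaments mainly from vimentin, and Jup is also found in adherens junctions.

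The authors' table gives 1 normalised value per genotype, on the scale of reads divided by library size factors. Its values sum to 19428299 in wild type and 18910077 in knockout. The 2 values of a gene have the deposited log2 fold change as their log2 ratio. With few reads they mostly lie closer together than the reads themselves. Krt8 in knockout has a deposited 7.48 against 3.88 in reads divided by size factor. Levels and sums taken from the deposited values share this limit. Whole reads per library could be recovered from the deposited means, since each mean is a sum of reads that each count for a fixed step per library. A single set of reads matched for 99.5% of the 6639 genes with a mean under 75. Between 75 and 200 several sets matched, and a set was used only if it was the single one in which libraries of a genotype lay within 2-fold and the change was 0.9 to 1.6 times the deposited log2 change. These conditions were chosen after seeing the data. For the genes they apply to (here Krt18, Krt19, Pkp1 and Cbx2), the agreement between libraries and the size of the change were therefore conditions of the choice and support nothing, and shifted means sometimes gave a match too. The libraries are called a and b within a genotype, by size factor, since which labelled replicate each one is was not known. Cbx2 itself had 324 and 355 reads in wild type against 27 and 25 in knockout, the set kept of 17 that matched its mean. All 14 fibroblast markers looked up were in the table, with means of 103 or more. The epithelial membrane markers Epcam and Cdh1 were near 0, while Spint2, a protease inhibitor on the epithelial list, is listed in the authors' deposited table at 394 and 336. Epcam had 3 and 1 reads in each genotype, and Cdh1, the epithelial cadherin, had 2 and 1 in wild type against 4 and 1 in knockout.

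Krt8 and Krt18 were lower in knockout and the plaque genes Dsp and Pkp1 were higher. In the authors' deposited table, 4 of the 9 genes passed a DESeq2 adjusted p of 0.05, against 7.78% of all genes, a share from which nothing is read because the members were chosen on this contrast. Krt7, Krt19, Krt5, Krt14 and Jup did not pass. With an absolute log2 fold change of 1 also required, 3 of the 9 remained (Krt8, Krt18 and Dsp), against 1.69% of all genes. Over all genes 4.3% were called lower and 3.48% higher, and 2548 of 17441 had an unadjusted DESeq2 p under 0.05. The median log2 fold change of the 9 genes was 0.094, against 0.0036 over all genes, with 2 members called in each direction.

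**Figure D1:**
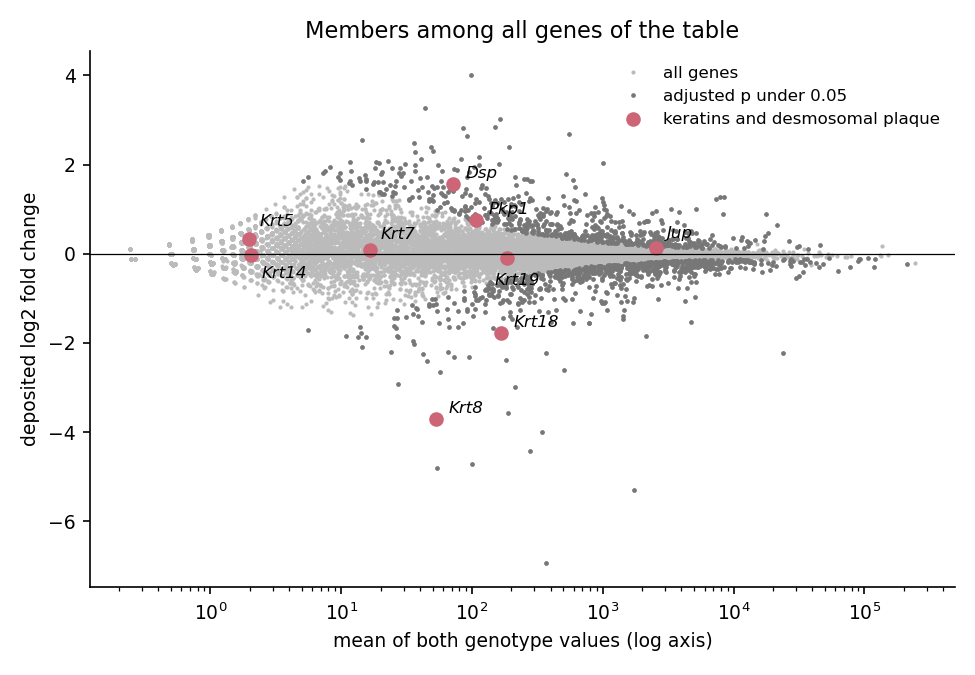
Deposited log2 fold change (knockout over wild type) against the mean of both genotype values on a log axis, for all 17441 genes (grey, darker where the adjusted p is under 0.05) and the 9 keratin and plaque genes (red). Krt8 lies at -3.71 and Krt18 at -1.78, Dsp at 1.56 and Pkp1 at 0.76, and the other members lie between -0.097 and 0.33.

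Krt8, the type II chain of simple epithelia, was nearly absent from the knockout libraries. Its reads came to 97 and 100 in the wild-type libraries against 3 and 5 in the knockout libraries, the single set that matched its mean. The genotypes did not overlap. The summed reads were 26.2-fold lower in knockout, with an exact binomial 95% interval of 13.0-fold to 61.5-fold that covers counting error only. The authors' deposited table gives Krt8 98.0 in wild type and 7.48 in knockout, a log2 fold change of -3.71 with an implied standard error of 0.42 (DESeq2 adjusted p 7.9e-17). The deposited change is smaller than that of the reads, as in most genes with few reads. For 44 genes with a mean of 50 to 75 and at least a 2-fold change in reads, it came to 89.5% of the log2 change in reads (median).

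Krt18, the type I partner of Krt8, fell less. It had 257 and 254 reads in wild type against 75 and 75 in knockout, the only 1 of 11 matching sets whose libraries lay within 2-fold of each other. The choice of the set fixes that the genotypes do not overlap, so the fall rests on the deposited values. In the authors' deposited table Krt18 went from 260.4 to 75.6, with a log2 fold change of -1.78, an implied standard error of 0.21, a 95% interval of -2.20 to -1.37 and a DESeq2 adjusted p of 3.01e-15. In bulk RNA, fewer cells that express a keratin and less keratin RNA per cell cannot be told apart.

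The 2 genes are neighbours on chromosome 15 and are read outward from the space between them. In the RefSeq annotation of GRCm38.p6, the assembly that mm10 stands for, Krt8 spans 101996711 to 102004342 on the minus strand and Krt18 spans 102028216 to 102032026 on the plus strand. The 23.9 kb between them holds 2 predicted genes, Gm36026 and Gm41404, which are not analysed here. Because this pair changed together and Dsp changed the other way, the 250 bases before the RefSeq start of each are shown, 5′ to 3′ on the strand of the gene. Capitals mark a GC box (GGGCGG) or a CACCC box (CCACCC) on either strand. The windows are chr15:102004343-102004592 (minus) for Krt8, chr15:102027966-102028215 (plus) for Krt18 and chr13:38151044-38151293 (plus) for Dsp.
Krt8: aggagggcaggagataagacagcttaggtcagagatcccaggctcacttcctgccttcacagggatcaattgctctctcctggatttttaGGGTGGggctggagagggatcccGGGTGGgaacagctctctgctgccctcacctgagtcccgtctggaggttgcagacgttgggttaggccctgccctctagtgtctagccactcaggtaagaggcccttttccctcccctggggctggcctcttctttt
Krt18: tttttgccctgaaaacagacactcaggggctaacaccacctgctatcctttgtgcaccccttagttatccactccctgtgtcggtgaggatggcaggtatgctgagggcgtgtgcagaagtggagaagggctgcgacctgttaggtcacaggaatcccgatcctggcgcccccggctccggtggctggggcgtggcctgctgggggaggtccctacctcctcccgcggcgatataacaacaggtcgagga
Dsp: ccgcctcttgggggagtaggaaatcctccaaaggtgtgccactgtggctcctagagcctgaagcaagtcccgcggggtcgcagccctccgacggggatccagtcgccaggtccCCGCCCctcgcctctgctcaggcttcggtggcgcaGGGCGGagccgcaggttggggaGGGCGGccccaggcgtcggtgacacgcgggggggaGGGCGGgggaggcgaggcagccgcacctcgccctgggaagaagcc
The Krt8 window holds 2 CACCC boxes, as its reverse letters GGGTGG, which begin 160 and 137 bases before the start. The Krt18 window holds neither motif, and the Dsp window holds 4 GC boxes. Genes that were not called hold these motifs too, Krt7 with 4 GC boxes and Jup with 2 GC boxes and 2 CACCC boxes. Of 32851 RefSeq promoter windows of this length, 32.7% hold a GC box and 28.1% a CACCC box. No match of an AP-1 site (TGANTCA, in 6.75% of windows) or of a TATA box (TATAAA, in 12.4%) was found in the windows of the 7 members that have one. The Krt14 window (chr11:100206031-100206280, minus) lies inside the annotated Krt14 span of 100203162 to 100207510. It does not show the bases before the outer end of that gene. The Jup window (chr11:100397791-100398040, minus) overlaps the end of the Jup span at 100397839. CpG content also differed. The Krt8 window has 3 CpG dinucleotides, Krt18 12, Jup 13, Krt7 16 and Dsp 22, against a median of 6 over all windows. These matches are descriptions of the letters, and the data used here do not measure binding or accessibility at them.

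Krt7 and Krt19, the other simple epithelial chains, did not pass the test. Krt19, a type I chain, had 189 and 182 reads in wild type against 184 and 184 in knockout, kept from 29 matching sets, of which 3 had libraries within 2-fold. In the authors' deposited table Krt19 had 190.9 and 178.4 (log2 fold change -0.097, implied 95% interval -0.47 to 0.28, DESeq2 adjusted p 0.932). Krt7, a type II chain, had 16 and 15 reads in wild type against 21 and 15 in knockout, so the genotypes overlapped. Its ratio of 1.09 had an exact binomial 95% interval of 0.657 to 1.83, and the authors' deposited table gives a log2 fold change of 0.094 (implied 95% interval -0.84 to 1.03, DESeq2 adjusted p 0.983). The deposited changes of Krt8 and Krt18 lie outside both implied intervals.

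Krt5 and Krt14, the pair of basal keratinocytes, were at the limit of detection in both genotypes. Krt5 had 0 and 2 reads in wild type against 3 and 3 in knockout. Krt14 had 0 and 4 reads in wild type against 2 and 2 in knockout. A count of 0 allows up to 3 reads, so no difference was detectable at this depth, and the deposited DESeq2 adjusted p-values in the authors' table were 0.931 and 0.997.

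**Figure D2:**
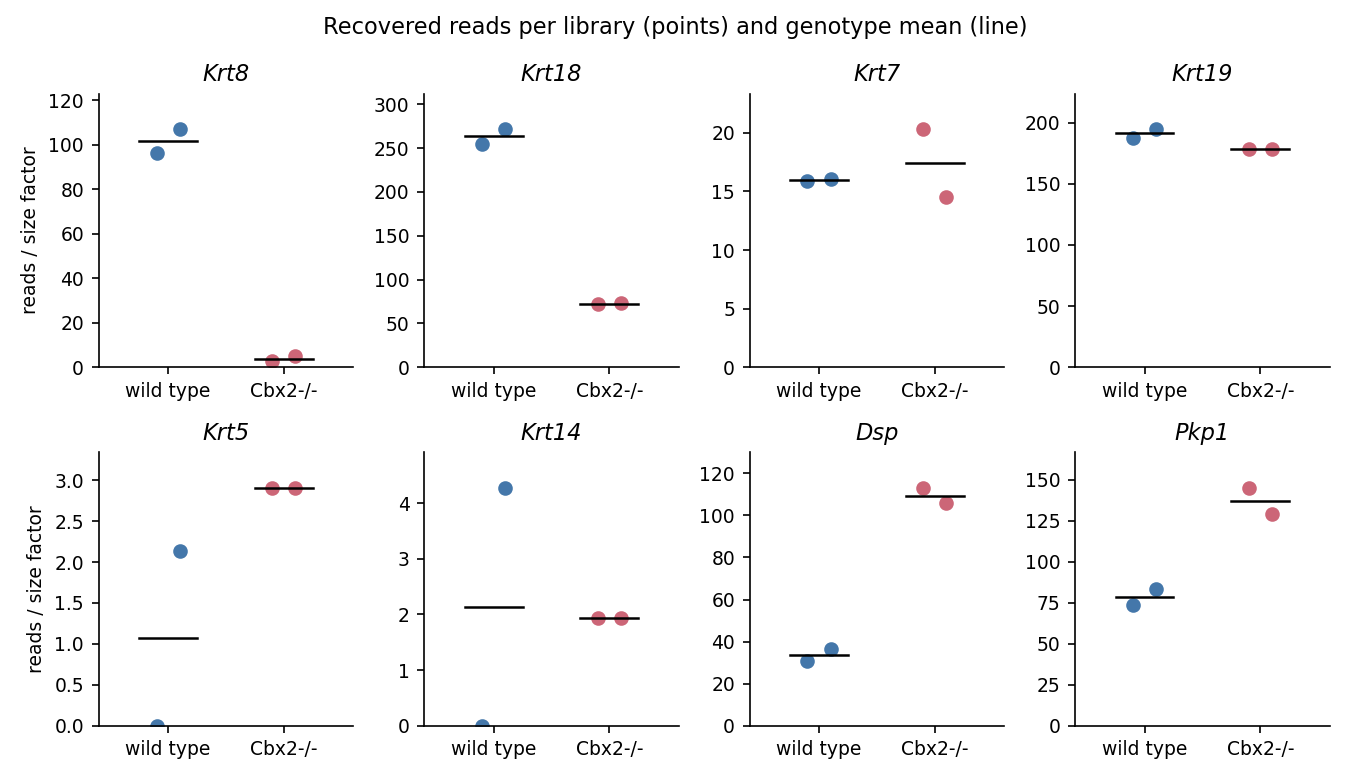
Recovered reads divided by the library size factor, from 0, for the 8 members with recovered reads, in 2 wild-type (blue) and 2 Cbx2-/- libraries (red), with the genotype mean as a line. Krt8 and Krt18 are lower and Dsp and Pkp1 higher in both knockout libraries, and Krt7 overlaps between genotypes; the reads of Krt18, Krt19 and Pkp1 were kept under conditions on library agreement and change.

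The make-up of the 6 keratins among the members differed between genotypes. Levels were compared between genes as reads per base of the deposited gene length. On that scale Krt8 stood at 0.293 and 0.305 times Krt18 in the wild-type libraries and at 0.0310 and 0.0517 times in the knockout libraries, and the type II chain was the scarcer of the pair in all 4 libraries. Krt18 exceeded Krt19 in wild type, by 1.36 and 1.39 times, and stood at 0.406 times Krt19 in both knockout libraries. Krt8 stood at 5.38 and 5.92 times Krt7 in wild type and at 0.127 and 0.296 times in knockout. Type II chains made up 16.7% and 17.3% of the reads per base of the 6 keratins in wild type against 7.96% and 6.75% in knockout. The share of Krt19 was 35.4% and 34.3% in wild type against 65.0% and 65.9% in knockout, with 189 and 182 reads against 184 and 184. The shares use the reads kept for Krt18 and Krt19 under the conditions above and rest on 559 and 557 keratin reads in wild type against 288 and 284 in knockout.

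**Figure D3:**
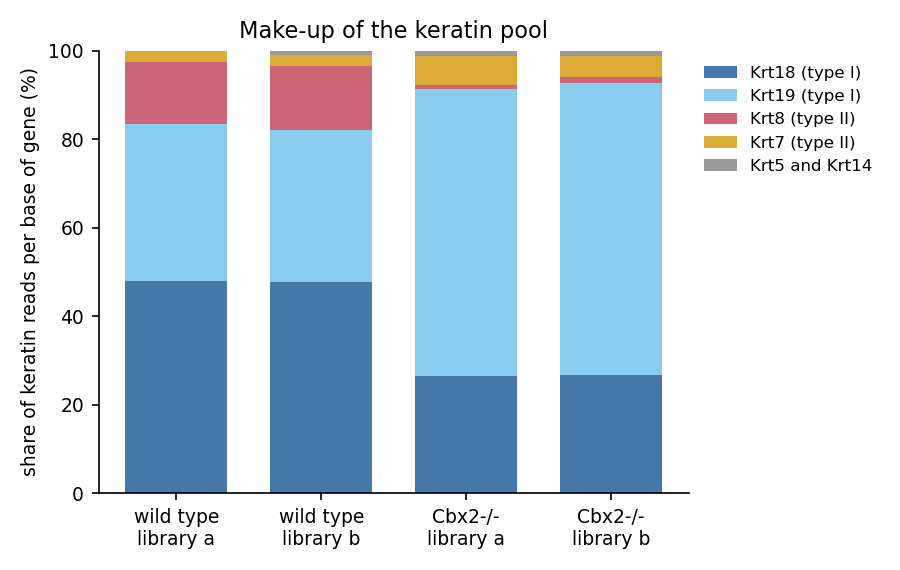
Share (%) of each keratin in the reads per base of the 6 keratins, stacked from 0 to 100, for the 4 libraries. Krt8 takes 14.0% and 14.6% in wild type against 0.820% and 1.38% in knockout, and Krt19 takes 65.0% and 65.9% of these 6 in knockout. The 19 other keratins are not counted.

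Dsp, the plakin that ties filaments to the desmosome, rose in knockout. It had 31 and 34 reads in wild type against 117 and 109 in knockout, the single matching set, and the genotypes did not overlap. The summed reads were 3.27-fold higher (exact binomial 95% interval 2.47 to 4.38). The authors' deposited table gives Dsp 36.2 and 106.8, a log2 fold change of 1.56 with an implied standard error of 0.30 and a DESeq2 adjusted p of 1.17e-05. Pkp1, the armadillo protein that clusters desmosomal cadherins, rose less. Its reads came to 74 and 78 in wild type against 150 and 133 in knockout, the only 1 of 5 matching sets with libraries within 2-fold. In the authors' deposited table Pkp1 went from 79.9 to 135.5 (log2 fold change 0.76, implied standard error 0.25, 95% interval 0.28 to 1.25, DESeq2 adjusted p 0.0314). That call was lost with 20% added to the implied standard error (adjusted p 0.154).

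Jup was by far the most abundant member and did not pass the threshold. The authors' deposited table lists it at 2462 in wild type and 2682 in knockout, with a log2 fold change of 0.12, an implied standard error of 0.063 and a DESeq2 adjusted p of 0.349. Its reads per library could not be recovered. The upper end of the implied 95% interval was 0.25 on the log2 scale, below the deposited changes of Dsp and Pkp1.

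On a scale per gene length with a total of 1000000 over all genes, computed from the authors' deposited table, the order in wild type was Jup (59.5), Krt18 (22.5), Krt19 (16.6), Krt8 (6.57), Pkp1 (2.07), Krt7 (1.22), Dsp (0.457), Krt14 (0.149) and Krt5 (0.0972). In knockout it was Jup (65.6), Krt19 (15.7), Krt18 (6.62), Pkp1 (3.56), Dsp (1.36), Krt7 (1.32), Krt8 (0.508), Krt14 (0.148) and Krt5 (0.124). In knockout Krt8 stood behind Pkp1, Dsp and Krt7. Its deposited value there, 7.48, is above its 3.88 reads per size factor, so 0.508 overstates its level in reads. Dsp and Krt7 could not be ordered in knockout, where their ratio per base was 0.931 in library a and 1.21 in library b, and neither could Krt14 and Krt5.

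The remaining keratins gave little signal. Of 19 others in the table, 16 had a mean under 5, and 0 passed the DESeq2 adjusted p, with 0 at an unadjusted p under 0.05. The exception in level was Krt20, a keratin of intestinal and urothelial epithelium, which the authors' deposited table lists at 215 in wild type and 200.2 in knockout (log2 fold change -0.10, DESeq2 adjusted p 0.931). Krt10, of differentiated epidermis, had 33 and 20 reads in wild type against 26 and 30 in knockout. Krt80 had 24 and 23 reads and 27 and 28. Among 15 other intermediate filament genes 2 rose and 2 fell (median log2 fold change 0.030), where 7.78% of all genes were called. In the authors' deposited table Des (desmin) fell by 1.05 and Vim (vimentin) by 0.12 on the log2 scale, and Nes (nestin) rose by 0.51 and Nefm, a neurofilament chain, by 1.43 (DESeq2 adjusted p 4.56e-42, 0.00199, 2.12e-23 and 0.0055).

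Other desmosome genes changed in both directions. Among 9 that were measured, 2 rose and 1 fell, with a median log2 fold change of 0.23 against 0.0036 over all genes and 7.78% of all genes called. Ppl (periplakin), a plakin like Dsp, had 12 and 5 reads in wild type against 46 and 53 in knockout, and the libraries did not overlap. It was 5.48-fold higher in reads (exact binomial 95% interval 3.25 to 9.78), and the authors' deposited table gives a log2 fold change of 1.92 (DESeq2 adjusted p 3.69e-04). Perp, a membrane protein needed for desmosome assembly and a target of p53, rose in the authors' deposited table, from 162.8 to 388 (log2 fold change 1.25, DESeq2 adjusted p 2.33e-12). Pkp2, a plakophilin also found outside stratified epithelia, fell from 1179 to 982 in the authors' deposited table (log2 fold change -0.26, DESeq2 adjusted p 0.0306). That call was lost with 20% added spread. On the scale per gene length Pkp2 was more abundant than Pkp1, at 49.4 against 2.07 in wild type. Pkp4 (log2 fold change -0.11) and Dsc2 (0.23) did not pass in the authors' deposited table. The desmosomal cadherins were scarce, and several other desmogleins and a desmocollin on the list were not in the authors' deposited table. On the scale per gene length Dsc2 stood at 0.702 in wild type and 0.832 in knockout, against 0.457 and 1.36 for Dsp. Dsc2 had 22 and 29 reads in wild type against 40 and 26 in knockout, Dsc3 had 1 and 2 against 6 and 3, and Dsg2 had 0 and 1 against 1 and 0.

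Hemidesmosomes anchor keratins to the basement membrane, and their genes were listed together with those of cytolinkers. Among 11, DESeq2 called 2 higher and 0 lower, against 3.48% and 4.3% of all genes. An unadjusted DESeq2 p under 0.05 was found for 4 of the 11, and for 2548 of all 17441 genes. Itgb4, the integrin beta 4 chain, had 39 and 26 reads in wild type against 105 and 105 in knockout, 3.04-fold more (exact binomial 95% interval 2.29 to 4.08, DESeq2 adjusted p 9.66e-05 in the authors' deposited table). Cd151, a tetraspanin partner of laminin-binding integrins, rose by a log2 fold change of 0.50 in the authors' deposited table (DESeq2 adjusted p 4.73e-14). The large cytolinkers Plec (-0.015) and Macf1 (-0.12) did not pass in the authors' deposited table. The median of the list was 0.050.

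**Figure D4:**
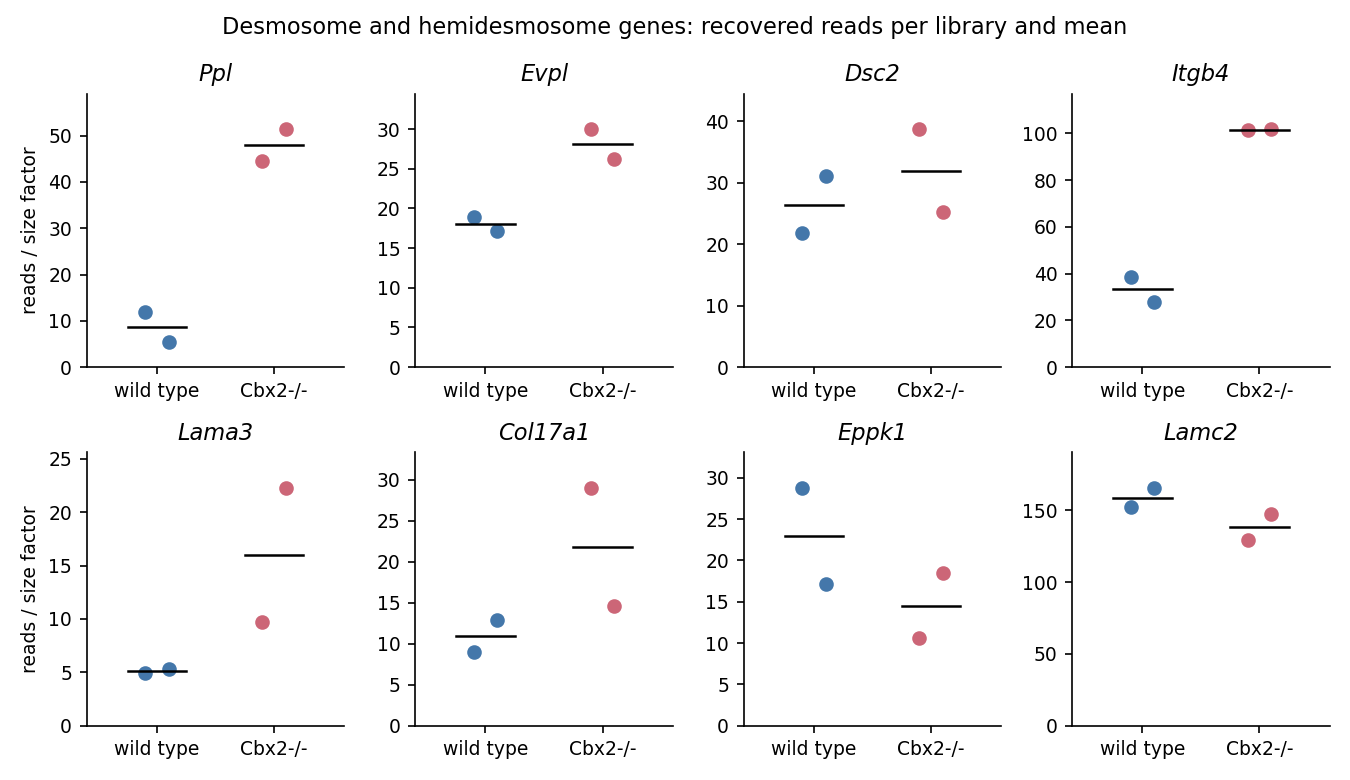
Recovered reads divided by size factor, from 0, for the 8 listed desmosome and hemidesmosome genes with recovered reads and a mean of 10 or more, in 2 wild-type (blue) and 2 Cbx2-/- libraries (red), with genotype means as lines. Ppl and Itgb4 are higher in both knockout libraries and passed the adjusted p, while the other 6 did not pass.

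Adherens and tight junction genes showed 0 rises and 3 falls between them, where 3.48% of all genes were called higher and 4.3% lower. Of 13 adherens junction genes 2 fell, Cdh11 (log2 fold change -0.19) and Cdh2 (-0.24), the cadherins of mesenchymal cells, while Ctnnb1 (-0.030) and Vcl (0.020) did not pass in the authors' deposited table. Of 14 tight junction genes 1 fell, F11r (-0.57), a junctional adhesion molecule whose call was lost with 20% added spread, and Tjp1 (0.046) did not pass in the authors' deposited table. The medians of the adherens and tight junction lists were -0.030 and 0.080. By DESeq2, 3 adherens and 2 tight junction genes were under an unadjusted p of 0.05, as were 2548 of all 17441 genes.

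**Figure D5:**
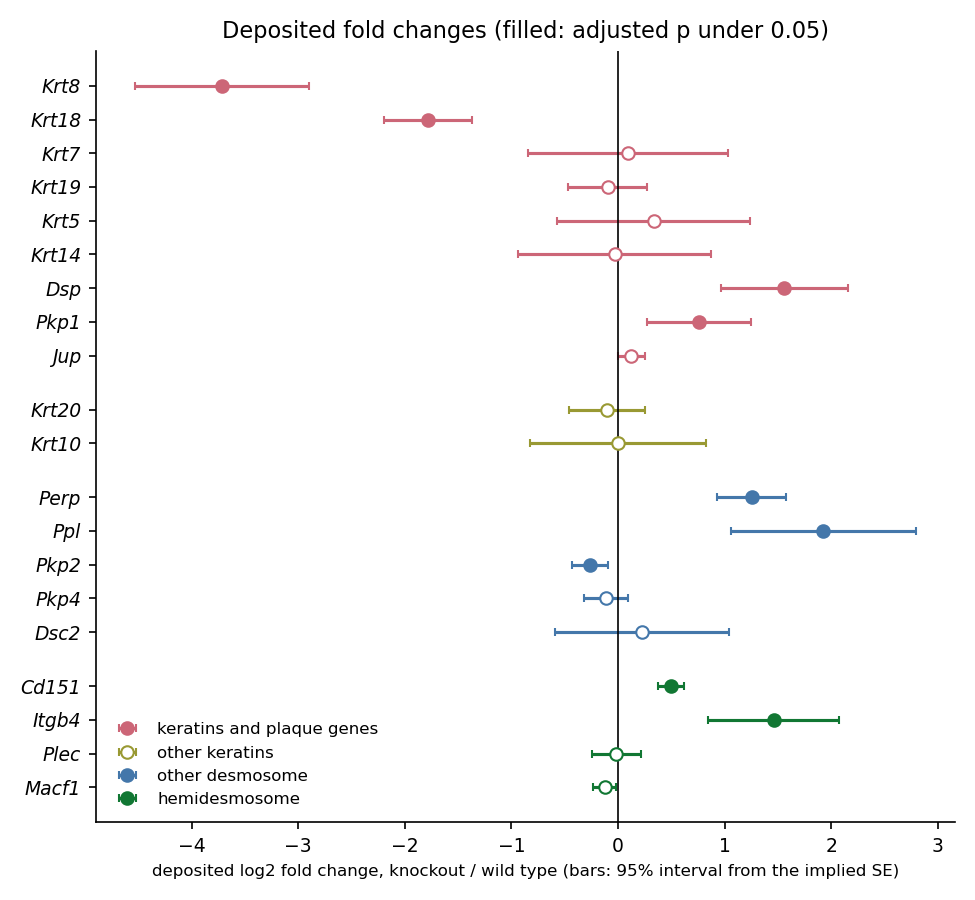
Deposited log2 fold change of the 9 keratin and plaque genes (red) and of named keratin, desmosome and hemidesmosome genes, with the 95% interval from the implied standard error as bars and filled points where the adjusted p is under 0.05. Krt8 and Krt18 lie below 0, and Dsp, Pkp1, Perp, Ppl, Itgb4 and Cd151 above.

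Of 13 epithelial transcription factors, 7 with a mean under 5 where a call is hardly possible, 1 rose, Klf5 (log2 fold change 0.74, DESeq2 adjusted p 6.31e-05), and Klf4 (0.19) and Esrp2 (0.26) did not pass in the authors' deposited table. Of 6 mesenchymal transcription factors that repress epithelial genes or mark mesenchyme, 4 fell and 0 rose, with 5 at an unadjusted DESeq2 p under 0.05. Over all genes 4.3% were called lower and 3.48% higher. All 6 had means of 1506 or more, and such abundant genes are called more often. Of 8721 genes at or above the median mean of 230.3, tested alone, 696 were called lower. With an absolute log2 fold change of 1 also required, 0 of the 6 were called lower. In the authors' deposited table Twist2 fell by 0.80, Snai1 by 0.22, Zeb2 by 0.26 and Snai2 by 0.22 on the log2 scale, while Twist1 (0.17) and Zeb1 (0.012) did not pass. The call of Snai2 was lost when centred on the median gene and with 20% added spread (adjusted p 0.0542 and 0.172). Of 11 cornified envelope genes, 5 with a mean under 5, 1 rose, Sbsn (suprabasin), from 562 to 1066 in the authors' deposited table (log2 fold change 0.92, DESeq2 adjusted p 6.06e-19), and Ivl (0.14) and Sprr1a (0.93, DESeq2 adjusted p 0.113) did not pass.

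Markers of cell types that carry keratins or desmosomes are given beside these changes, and their part in them was not tested. Over all genes DESeq2 called 3.48% higher and 4.3% lower, and 2548 of 17441 had an unadjusted p under 0.05. Of 16 epithelial markers 1 fell and 0 rose, with 1 at an unadjusted p under 0.05. Their summed value went from 492 to 398, with 12 under a mean of 5. Spint2 held most of it (394 of 492 in wild type and 336 of 398 in knockout), and the other 15 summed to 98.2 and 62.2. The gene that fell was Sfn, an epithelial 14-3-3 protein, with 59 and 56 reads in wild type against 17 and 6 in knockout. Its values in the authors' deposited table, 56.0 and 14.4, are part of the sums of those 15. Of 10 mesothelial markers, a lineage rich in Krt8, Krt18 and Krt19, 1 rose and 1 fell. Cav1, which fibroblasts also express, held most of their summed value (9816 of 10393 in wild type and 9348 of 9959 in knockout), and the other 9 summed to 577 and 611. Msln (mesothelin) was among the called genes (112 and 226 in the authors' deposited table), and Wt1 went from 75 and 64 reads to 26 and 34, a call lost with 20% added spread. Of 9 trophoblast markers 1 rose, Prl2c2 (log2 fold change 1.05, DESeq2 adjusted p 0.0289 in the authors' deposited table, lost with 20% added spread), and the summed values were 134 and 171. Of 10 cardiomyocyte markers 0 passed by DESeq2, with 0 at an unadjusted p under 0.05, and the sums were 124 and 147. Of 12 macrophage markers 8 were higher and 0 lower by DESeq2, with 10 at an unadjusted p under 0.05, against 3.48% of all genes called higher (summed values 684 and 1966). With 20% added spread 6 were called, and Csf1r, an abundant one, did not pass at 245 and 257 in the authors' deposited table. Of 9 endothelial markers 2 rose, Esam and Cdh5, which in the authors' deposited table summed to 97.1 and 614, while the other 7 summed to 82.3 and 71.1. Of 14 fibroblast markers 10 fell and 1 rose (sums 769442 and 667160). Their means were 103 or more. Of 8721 genes at or above the median mean of 230.3, tested alone, 696 were called lower and 457 higher.

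Krt7, Krt5, Krt8 and Krt18 lie on chromosome 15, Krt19, Krt14 and Jup on chromosome 11, Dsp on chromosome 13 and Pkp1 on chromosome 1. Cbx2 is also on chromosome 11, 18.6 Mb beyond Jup. Among the 51 other genes within 5 measured places of a member, 2 were higher and 1 was lower in the authors' deposited table, a share of 5.88% against 7.78% of all genes. They were Igfbp6 near Krt8 and Krt18 (log2 fold change 0.43), Phlda3 near Pkp1 (0.26) and Fkbp10 near Jup (-0.13). The median over these 51 genes was 0.097. It is the deposited change of a gene with values of 0.726 in wild type and 0.777 in knockout. Several neighbours had values under 1 in both genotypes, so no rise is read from this median.

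The genes with the most similar change were named by the difference in deposited log2 fold change, over 2 genotype values and among genes with a mean of at least 20. For Krt8 they were Cbx2 (-3.58), Nrn1 (-3.99) and H2-T10 (-4.41), and for Krt18 Erdr1 (-1.84), Tac1 (-1.85) and Hand2 (-1.86), all from the authors' deposited table. For Dsp they were Vgf, Gja4 and Gbp2b (1.54, 1.54 and 1.53), and for Pkp1 they included Zic4 and Ccl27a (each 0.76), which did not pass the adjusted p in the authors' deposited table.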

How the data were processed

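RNA from 2 wild-type and 2 Cbx2-/- libraries was compared. Per the submitters' processing notes, the tools were DESeq2, RSEM, HISAT2 and Bowtie2 and the genome mm10, with no versions. What each tool did is not stated in them. The authors deposited 1 normalised read signal per genotype, a log2 fold change and p-values. The log2 fold change equals the log2 ratio of the 2 columns to within 9.13e-09. The adjustment of the p-values equals Benjamini-Hochberg over 17441 genes to within 1.33e-06. The deposited comparison was used as it stands, since the table holds no counts per library. A standard error was implied from each deposited log2 fold change and p-value.

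Reads per library were recovered from the deposited means by a search over whole reads, for values written with 10 significant digits (Python 3.11.15). Depth per library follows from these reads, and intervals cover counting error only. They are exact binomial (Clopper-Pearson) at 95%. A limma fit (3.58.1, R 4.3.3) on log2(reads / size factor + 1) took the 2196 recovered genes with a mean of 10 or more, a minimum set after a fit over all of them failed on simulated reads. The recovery and this fit were then tested on simulated data. Single matches were recovered there, and under the conditions used above a mean of 75 some shifted means matched by chance, so reads of those genes are less certain and no interval is given for them.

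Of the deposited identifiers 17400 matched RefSeq GRCm38.p6, with all 9 members. Promoter windows exist there for 7 members. A near copy of Krt8, Krt8-ps, is annotated and not analysed here. The named genes were set by a rule: all members, Cbx2, up to 4 called genes and the 2 most abundant others of each list, called chromosome neighbours within 5 places, and the 3 genes nearest in fold change to each called member. Some genes that it picks are not reported here. Genes named outside it (Krt80, Dsc3, Dsg2, Epcam, Cdh1) were chosen after their values were seen. Members and lists were chosen with earlier results of these data known.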

Additional observations from a re-analysis of the deposited data

How the results depend on the processing

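Under the stricter rule that also asks for an absolute log2 fold change of 1 or more, 1 of the 9 genes was called higher (Dsp) and Pkp1 was lost. Of 181 list genes, 6 were called lower under it against 21 in the main setting. Over all 17441 genes the same counts were 119 against 750. With 20% added spread 1 member was called higher. Among genes at or above the median mean of 230.3 only Jup of the 9 was tested, so 0 members were called higher and 0 lower. There 7 list genes were called higher against 21, and over all genes 457 of 8721 against 607 of 17441. Centring on the median gene changed no call of a member. Over all genes the share of higher calls was 44.7%, 59.5% under the stricter rule and 48.8% when centred. limma called 265 recovered genes higher and 128 lower, of 2196 (17.9%). Over all 6603 recovered genes, an alternative chosen after seeing the data, it called 0 higher and 0 lower, with 1096 at an unadjusted p under 0.05. Leaving out each library in turn gave 0 to 73 higher and 0 to 57 lower, with 0 in both directions when either wild-type library was left out and the remaining one was assumed to vary like the others. The cause was not tested. For the members, the log2 difference of reads without each library in turn ranged from -4.71 to -4.13 for Krt8 and from 1.56 to 1.80 for Dsp, whose reads were a single match. No paired analysis was possible because the deposited columns and the recovered libraries carry no replicate number. The limma test in place of the deposited one was not run for all genes, since reads above a mean of 75 were not recovered in general. Depth limits Krt5, Krt14 and 16 of the 19 other keratins, whose means were under 5, and 7 of 13 epithelial transcription factors and 5 of 11 envelope genes.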
